A study of Homo sapiens with 12 samples.

Results

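The aldo-keto reductases (AKRs) and aldehyde dehydrogenases (ALDHs) described here were AKR1B1, AKR1B10, AKR1C1, AKR1C2, AKR1C3, ALDH1A1, ALDH1A3, ALDH2, ALDH3A1 and ALDH3A2. They were taken by gene name from the table of read counts, as 10 of its 58735 genes, and all 10 were among the 16618 genes with a mean of at least 10 counts per library that were tested. mRNA was sequenced from HaCaT, a spontaneously immortalized keratinocyte line of adult human skin, and from TIGK, a telomerase-immortalized keratinocyte line of human gingiva. Each line was left untreated or received 5 mM H2O2 over 3 h, in 4 groups of 3 libraries: untreated TIGK (Tctrl), treated TIGK (Thp), untreated HaCaT (Hctrl) and treated HaCaT (Hhp). A single library is named by its group and its replicate number, such as Thp 3. All 4 groups grew in the same complete medium, DermaLife K, which contains insulin and hydrocortisone. Each tissue was represented by a single line, so that skin and gingiva cannot be told apart from HaCaT and TIGK. The sources do not say whether the 3 libraries of a group came from separate cultures, and the p-values measure only the spread between these libraries, which may be technical. In the treatment label of the treated samples the last digit of the formula rises from replicate to replicate, whereas the treatment protocol names H2O2 for all of them.

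H2O2 and iron start chains of lipid peroxidation in membranes, and the broken lipids release reactive aldehydes such as hydroxynonenal, malondialdehyde and acrolein, which bind to proteins and DNA. AKRs spend NADPH to reduce such carbonyls to alcohols, and ALDHs spend NAD or NADP to oxidize aldehydes to acids. The same enzymes have other substrates. ALDH1A1 and ALDH1A3 make retinoic acid from retinal, AKR1B10 turns retinal back to retinol, and the AKR1C enzymes reduce steroids and prostaglandins. Several of these genes are textbook targets of NRF2, the transcription factor of the electrophile response, or of AHR, the aryl hydrocarbon receptor.

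The data showed a single large response to H2O2 among the 10 genes. ALDH1A3 fell in both lines, to 27.3% of its untreated level in TIGK and to 38.9% in HaCaT, and the fall was deeper in TIGK. ALDH3A2 rose slightly in both lines, but its call in HaCaT was lost in 11 of 21 alternative fits. ALDH2 and AKR1B1 passed as higher in HaCaT only by edgeR, and ALDH2 also in TIGK by DESeq2 (adjusted p = 0.00702). Neither passed edgeR's test of the difference between the responses (adjusted p = 0.328 for ALDH2 and 0.0491 for AKR1B1, limit 0.01). Between the untreated lines 8 of the 10 genes differed, against 59.9% of all genes tested, and ALDH1A3 did not pass. AKR1C2, ALDH1A1 and ALDH3A1 were 5.20-, 25.8- and 13.1-fold higher in untreated HaCaT, whereas AKR1B1 and ALDH2 were 1.98- and 1.96-fold higher in untreated TIGK. In TIGK, ALDH1A1 and ALDH3A1 had only 2 to 16 counts per library, and they reached the filter through their HaCaT counts.

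The 300 bases around the start site of 3 members are printed because 2 of them are near-identical copies whose levels differed unlike between the lines, and the last belongs to the gene with the large response. They were read from RefSeq on GRCh38.p14, 250 bases before to 50 after the annotated start, 5′ to 3′ on the strand of the gene. The first is AKR1C1 at chr10:4963165-4963464 on the plus strand, the next is AKR1C2 at chr10:5003808-5004107 on the minus strand, and capitals mark the bases at which these differ.
AKR1C1: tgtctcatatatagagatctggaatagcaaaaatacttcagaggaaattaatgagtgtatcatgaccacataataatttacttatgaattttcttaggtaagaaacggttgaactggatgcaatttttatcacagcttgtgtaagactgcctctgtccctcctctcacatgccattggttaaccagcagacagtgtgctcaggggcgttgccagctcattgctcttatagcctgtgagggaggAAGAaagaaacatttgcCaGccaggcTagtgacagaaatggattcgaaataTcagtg
AKR1C2: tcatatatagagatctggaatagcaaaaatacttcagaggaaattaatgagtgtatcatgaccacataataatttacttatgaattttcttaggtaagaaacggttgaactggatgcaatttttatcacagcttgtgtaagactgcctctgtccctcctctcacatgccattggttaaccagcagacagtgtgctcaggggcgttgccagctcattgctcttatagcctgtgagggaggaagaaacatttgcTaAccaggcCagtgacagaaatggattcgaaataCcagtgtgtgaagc
In the alignment of this pair 288 of 296 bases were identical (97.3%), 4 were mismatched and 4 were present in AKR1C1 alone. Both windows of AKR1C3 were less alike, at 76.9% and 73.7% identity with AKR1C1. In the ALDH1A3 window, chr15:100879581-100879880 on the plus strand, capitals mark GCGTG read on either strand, the core of the xenobiotic response element that AHR binds.
ALDH1A3: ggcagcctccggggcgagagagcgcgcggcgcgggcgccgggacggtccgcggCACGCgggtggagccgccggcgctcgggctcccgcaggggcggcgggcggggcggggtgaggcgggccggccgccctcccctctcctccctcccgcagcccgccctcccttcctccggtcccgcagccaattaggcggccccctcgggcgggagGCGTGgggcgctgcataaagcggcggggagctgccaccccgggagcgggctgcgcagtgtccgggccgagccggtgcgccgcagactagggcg
Windows were found for 7 of the 10 genes, 10 windows in all. On either strand, GCGTG was present in windows of AKR1B1, ALDH1A3 and ALDH3A2, and 36.54% of all 35116 RefSeq windows of this length held it. Neither TGACNNNGC, the core of the antioxidant response element, nor TGANTCA, the AP-1 site, was found in the members' windows. These letters were found in 13.35% and 7.709% of all windows, and a site that fits both counted under each.

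Library totals lay between 30426401 and 49034244 counts. Values are given as CPM, read counts scaled to a common library size after TMM normalization. A level is compared between genes only as CPM per kb of the gene length in the deposited table. These lengths ran from 1744 bases for AKR1B10 to 9720 for ALDH2. Whether they match the transcripts expressed in these lines was not tested, and orders and shares between genes depend on them. Folds are from edgeR's quasi-likelihood fit of all 12 libraries, and a gene passed the test at an adjusted p under 0.01 over all genes tested. The keratinocyte markers KRT5, KRT14, KRT6A, KRT17, TP63 and DSP were present in every library, with a summed level of 40666 to 53059 CPM. Their summed level was between 45619 and 46520 CPM in untreated and between 50407 and 53059 CPM in treated TIGK, and between 40666 and 42641 CPM in untreated and between 44603 and 48399 CPM in treated HaCaT. The 5 fibroblast markers summed to 18.9 CPM or less, nearly all of it COL1A1, and COL1A2 was at 0 in all 12 libraries. The melanocyte, endothelial and leukocyte markers summed to at most 2.59, 1.65 and 3.43 CPM. In bulk samples, fewer cells of a kind and less RNA per cell cannot be told apart.

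**Figure D1:**
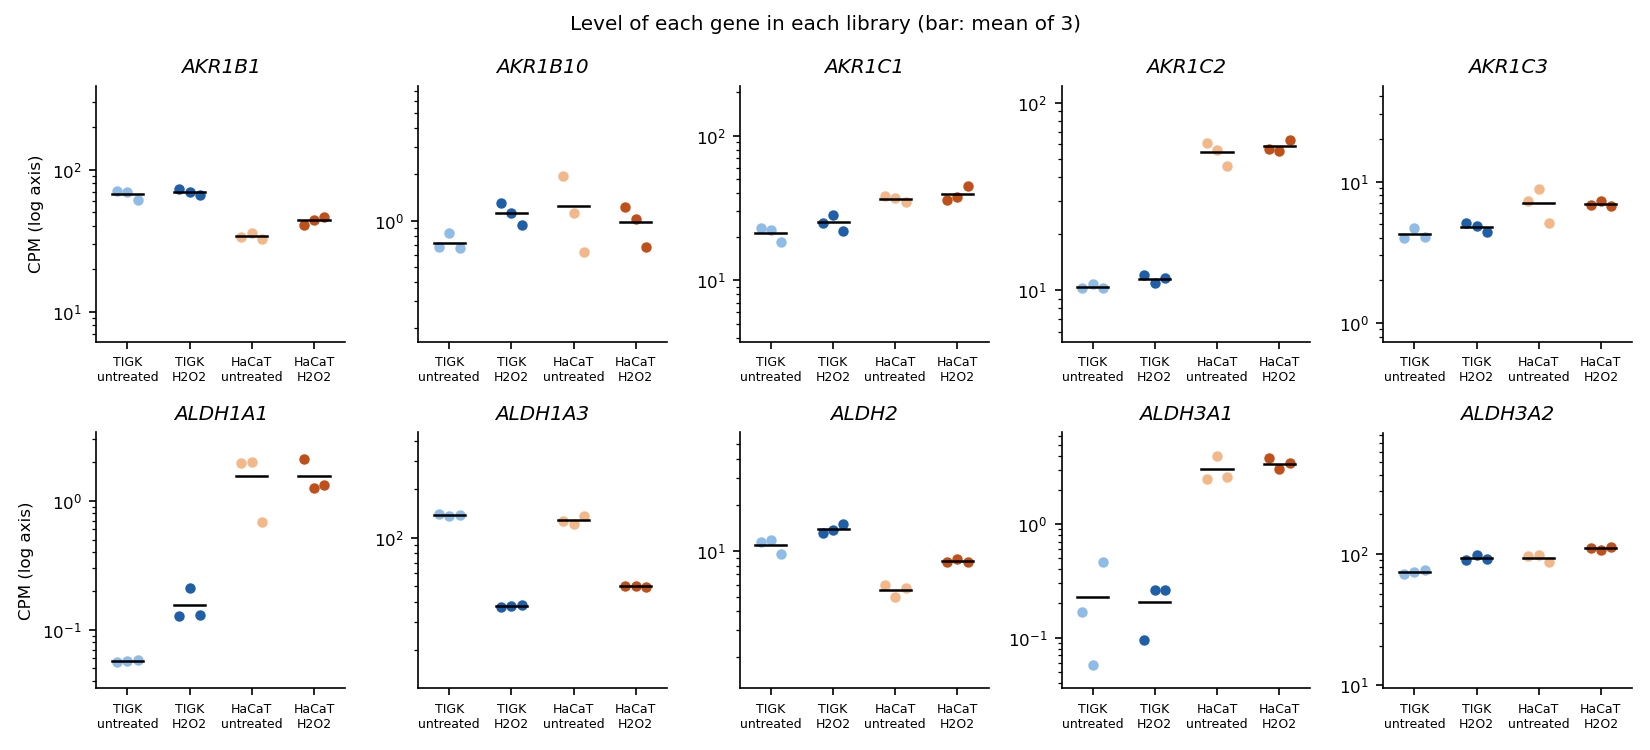
Level of each gene in CPM (log axis) in each of the 12 libraries, grouped by line and treatment, with points for libraries and bars for the means of 3. ALDH1A3 lay between 121 and 140 CPM in the untreated and between 37.4 and 50.1 CPM in the treated libraries, and AKR1C2 between 10.3 and 12.1 CPM in TIGK and between 46.2 and 63.7 CPM in HaCaT.

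Per kb, ALDH1A3 had the highest mean level of the 10 genes in both untreated lines. In untreated TIGK it stood at 23.9 ± 0.291 CPM per kb (SD, n = 3), followed by AKR1B1 at 18.4 ± 1.44 and ALDH3A2 at 11.3 ± 0.446. In treated TIGK the order was AKR1B1 at 19.1 ± 0.984, ALDH3A2 at 14.5 ± 0.644 and ALDH1A3 at 6.54 ± 0.0703 CPM per kb. In untreated HaCaT, ALDH1A3 at 22.2 ± 1.36 CPM per kb was followed by ALDH3A2 at 14.5 ± 0.999, AKR1B1 at 9.30 ± 0.501 and AKR1C2 at 8.42 ± 1.17, and the last pair lay within each other's spread. In treated HaCaT, ALDH3A2 led at 17.1 ± 0.584 CPM per kb, before AKR1B1 at 12.0 ± 0.791, AKR1C2 at 9.06 ± 0.694 and ALDH1A3 at 8.65 ± 0.0370, of which the last pair did not differ beyond their spread. The other members were at 4.50 CPM per kb or less in every group mean, with ALDH1A1 and ALDH3A1 lowest in TIGK.

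Summed over the 10 genes, the level per kb was 60.2 ± 1.46 CPM per kb in untreated and 48.0 ± 1.32 in treated TIGK (SD, n = 3). In HaCaT it was 62.8 ± 2.56 in untreated and 55.7 ± 2.07 in treated libraries. The libraries of the untreated and treated groups did not overlap in either line. ALDH1A3 made up 39.8% ± 1.09 of this sum in untreated and 13.6% ± 0.521 in treated TIGK, and 35.5% ± 3.48 and 15.5% ± 0.630 in HaCaT. ALDH1A3 itself fell by more than this sum, from 23.9 to 6.54 CPM per kb in TIGK and from 22.2 to 8.65 in HaCaT. The share of ALDH3A2 was 18.8% ± 1.17 before and 30.2% ± 1.24 after H2O2 in TIGK, and 23.1% ± 0.759 and 30.7% ± 0.576 in HaCaT. Its level rose less than its share, from 11.3 to 14.5 CPM per kb in TIGK and from 14.5 to 17.1 in HaCaT, as the sum fell. AKR1C2 made up 2.69% ± 0.0714 of the sum in untreated TIGK and 13.4% ± 1.34 in untreated HaCaT.

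**Figure D2:**
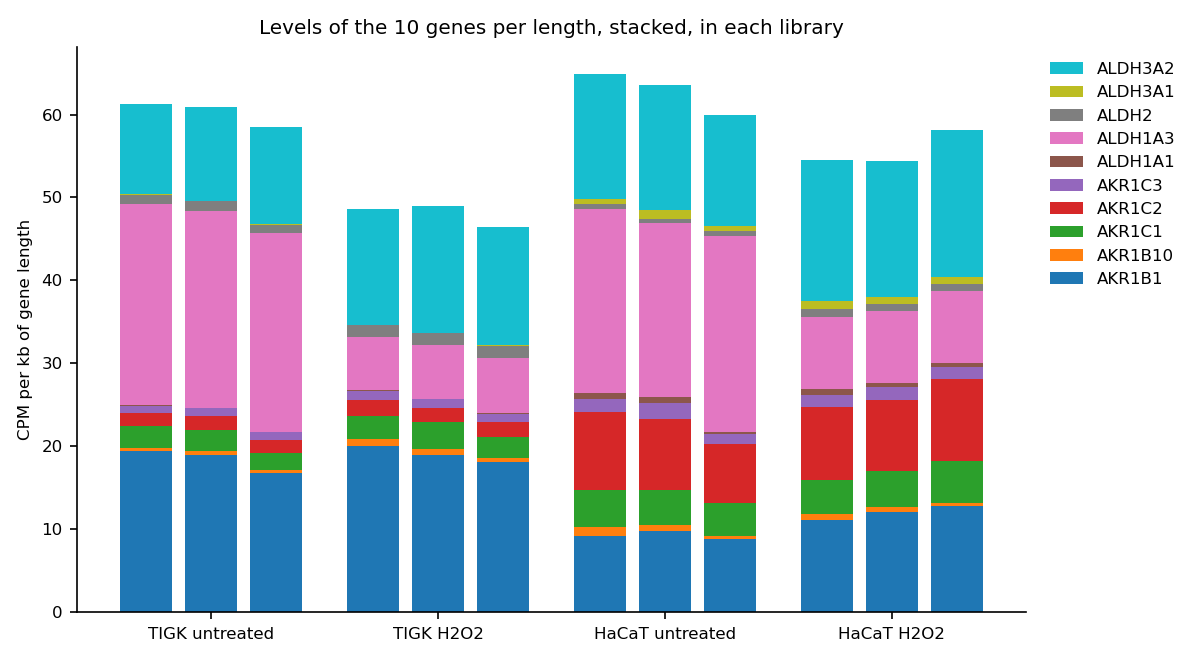
Levels of the 10 genes in CPM per kb of gene length, stacked, with 1 bar for each library. The band of ALDH1A3 narrows after H2O2 in both lines, from 39.8% to 13.6% of the bar in TIGK and from 35.5% to 15.5% in HaCaT, and the band of AKR1C2 is wider in HaCaT.

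Whether H2O2 changed the level of each gene was asked within each line. The libraries of the untreated and treated groups did not overlap for 6 of the 10 genes in TIGK and 4 in HaCaT, beside 51.1% and 53.8% of all genes tested. In TIGK 1 of the 10 genes rose, 1 fell and 8 did not pass the test, against 23.2% of all genes tested that passed, 10.2% higher and 12.9% lower. In HaCaT 3 rose, 1 fell and 6 did not pass, against 34.1% of all genes that passed, 18.9% higher and 15.2% lower. The median log2 fold change of the 10 genes was 0.21 in TIGK and 0.10 in HaCaT, beside 0.01 and 0.04 over all genes tested.

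Of the retinal dehydrogenases, ALDH1A3 (ENSG00000184254, chr15:100877714-100916626 on the plus strand) was the only member that fell. Its level was 140, 136 and 138 CPM in the libraries of untreated TIGK and 37.4, 37.6 and 38.2 CPM in those of treated TIGK. It was 128, 121 and 136 CPM in untreated HaCaT and 50.1, 50.0 and 49.7 CPM in treated HaCaT. All treated libraries lay below all untreated ones, and the libraries of each treated group differed among themselves by less than 1 CPM. The fall was 3.66-fold in TIGK (log2 fold change -1.87, SE 0.0559, adjusted p = 1.19e-14) and 2.57-fold in HaCaT (log2 fold change -1.36, SE 0.0550, adjusted p = 1.08e-12). Counted from the lowest log2 fold change among the 16618 genes tested, it stood at rank 227 in TIGK and 817 in HaCaT.

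The gene overlaps 2 antisense genes on the other strand, and the sources used here do not state whether counting used strand, so that reads of the shared stretches cannot be told apart. In the GENCODE transcripts, 20.7% of the 150-base windows of ALDH1A3 were shared with its antisense RNA. The counts of that antisense gene, AC015712.2, came to 6.32 ± 2.26 CPM in untreated and 5.14 ± 1.12 CPM in treated TIGK (SD, n = 3), with overlapping libraries, a log2 fold change of -0.29 and an adjusted p of 0.309. In HaCaT it was at 9.43 ± 0.556 CPM untreated and 3.90 ± 0.429 CPM treated, and it fell by 1.27 on the log2 scale (adjusted p = 0.000114).

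ALDH1A1 (ENSG00000165092, chr9:72900662-73080442 on the minus strand), which makes retinoic acid as ALDH1A3 does and marks many stem cell populations, was close to the limit of detection in TIGK. It had 2 counts in each untreated and 4, 8 and 6 counts in the treated TIGK libraries, and the ratio of the summed counts, scaled for depth, was 2.74 (95% interval 1.04 to 8.44, counting error only). The change did not pass the test (log2 fold change 1.40, SE 0.736, adjusted p = 0.147). In HaCaT it had 93, 66 and 25 counts untreated and 69, 39 and 45 counts treated, groups that overlapped (log2 fold change 0.01, 95% interval -0.79 to 0.82).

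ALDH2 (ENSG00000111275, chr12:111766887-111817529 on the plus strand), the mitochondrial enzyme that oxidizes acetaldehyde and lipid aldehydes, was at 6.00, 4.97 and 5.66 CPM in untreated and 8.43, 8.87 and 8.45 CPM in treated HaCaT. It rose 1.54-fold there (log2 fold change 0.63, SE 0.121, adjusted p = 0.00039). In TIGK it was at 11.3, 11.8 and 9.54 CPM untreated and 13.1, 13.6 and 15.0 CPM treated, without overlap. That change did not pass the limit (log2 fold change 0.36, SE 0.114, adjusted p = 0.0203), but it did with DESeq2 in place of edgeR (adjusted p = 0.00702).

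ALDH3A2 (ENSG00000072210, chr17:19648136-19677598 on the plus strand) encodes the fatty aldehyde dehydrogenase of the endoplasmic reticulum, whose loss causes the scaling skin of Sjögren-Larsson syndrome. Its level was 70.1, 73.4 and 75.8 CPM in untreated and 90.3, 98.2 and 92.2 CPM in treated TIGK, a rise of 28.0% (log2 fold change 0.36, SE 0.0610, adjusted p = 0.000168). In HaCaT it was 97.1, 97.6 and 86.2 CPM untreated and 110, 106 and 114 CPM treated, again without overlap. The rise of 17.7% there passed the limit (log2 fold change 0.23, SE 0.0605, adjusted p = 0.00379), but it no longer passed in 11 of 21 alternative fits, among them those without Hctrl 3 (adjusted p = 0.0318), Hhp 1, 2 or 3 (0.021, 0.013 and 0.0117), Tctrl 2 (0.018), Thp 2 (0.0153) or Thp 3 (0.0175).

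ALDH3A1 (ENSG00000108602, chr17:19737984-19748943 on the minus strand), known as a major soluble protein of the cornea and as an AHR target, did not pass the test in either line. It had 6, 2 and 16 counts in untreated and 3, 10 and 12 in treated TIGK libraries. In HaCaT its level was 2.51, 3.99 and 2.61 CPM untreated and 3.77, 3.02 and 3.41 CPM treated, and the 95% interval of the log2 fold change ran from -0.51 to 0.86.

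AKR1B1 (ENSG00000085662, chr7:134442350-134459284 on the minus strand), the aldose reductase that reduces glucose to sorbitol and also clears hydroxynonenal, rose in HaCaT. Its level there was 33.7, 36.0 and 32.4 CPM untreated and 41.0, 44.4 and 46.7 CPM treated, which did not overlap (log2 fold change 0.37, SE 0.0738, adjusted p = 0.000471). In TIGK it was 71.2, 69.3 and 61.3 CPM untreated and 73.5, 69.5 and 66.4 CPM treated. Those libraries overlapped, and the log2 fold change was 0.05 with a 95% interval of -0.10 to 0.20.

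AKR1B10 (ENSG00000198074, chr7:134527592-134541408 on the plus strand), a retinal reductase and NRF2 target, was low in both lines. It was at 0.673, 0.829 and 0.663 CPM in untreated and 1.31, 1.13 and 0.939 CPM in treated TIGK, without overlap, but did not pass the test (log2 fold change 0.63, SE 0.392, adjusted p = 0.223). In HaCaT its untreated libraries spread from 0.626 to 1.96 CPM and covered all 3 treated ones, which lay between 0.677 and 1.23 CPM.

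AKR1C1, AKR1C2 and AKR1C3 lie side by side on chromosome 10 and encode steroid reductases, of which AKR1C1 inactivates progesterone, AKR1C2 dihydrotestosterone, and AKR1C3 makes testosterone and prostaglandin F. None of the 3 passed the test of the response in either line. Their log2 fold changes in TIGK were 0.24 for AKR1C1 (SE 0.108, adjusted p = 0.0842), 0.14 for AKR1C2 (SE 0.102, adjusted p = 0.308) and 0.18 for AKR1C3 (SE 0.175, adjusted p = 0.45). In HaCaT they were 0.10, 0.10 and -0.02, with 95% intervals of -0.12 to 0.32, -0.08 to 0.29 and -0.37 to 0.33. Counts of AKR1C1 to AKR1C4 summed as 1 feature, since near-identical copies can trade reads, did not pass either (log2 fold change 0.21 in TIGK and 0.10 in HaCaT, adjusted p = 0.0754 and 0.374).

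**Figure D3:**
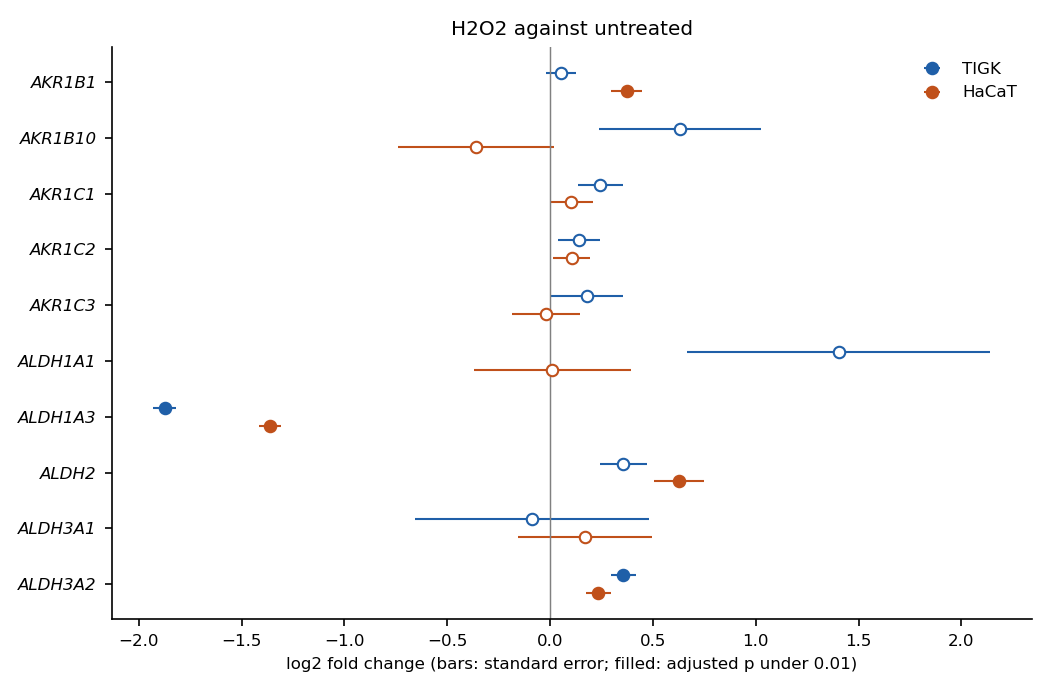
Log2 fold change after H2O2 of each gene in TIGK and HaCaT, with bars of 1 standard error and filled points for an adjusted p under 0.01. ALDH1A3 stands apart on the left, at -1.87 and -1.36, and the filled points on the right are ALDH3A2 in both lines and AKR1B1 and ALDH2 in HaCaT.

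Whether the lines responded unlike was tested as the difference of the 2 responses, TIGK minus HaCaT. Of the 10 genes, 1 passed, as lower, against 5.3% of all genes tested, 2.98% as lower. The fall of ALDH1A3 was deeper in TIGK, by 0.51 on the log2 scale (log2 difference -0.51, SE 0.0771, adjusted p = 0.000227). With the counts of both antisense genes added, an alternative chosen after seeing the data, the difference was -0.39 (adjusted p = 0.00287) and the falls were -1.75 and -1.36. How reads of the shared stretches were assigned is not known, so this sum cannot settle their origin. The difference for AKR1B1 was -0.32 (SE 0.102, adjusted p = 0.0491) and missed the limit of 0.01. For ALDH2 it was -0.27 with a 95% interval of -0.62 to 0.08, and for ALDH3A2 0.12 with an interval of -0.06 to 0.30. The largest estimates, 1.39 for ALDH1A1 and 0.99 for AKR1B10, belonged to genes with few counts and had standard errors of 0.829 and 0.546.

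The standing levels of the genes were then compared between the lines, HaCaT against TIGK. These comparisons share their libraries with those of the response. Untreated, 6 of the 10 genes were higher in HaCaT, 2 were lower and 2 did not pass, beside 59.9% of all genes tested that passed, 29.1% higher and 30.8% lower. After H2O2, 7 were higher, 2 lower and 1 did not pass, beside 60% of all genes, 30.2% higher and 29.8% lower. Among the higher ones, ALDH1A1 and ALDH3A1 reached the filter on counts only through their HaCaT libraries. The libraries of the lines did not overlap for 8 of the 10 genes untreated and 9 after H2O2, beside 73.3% and 71.3% of all genes. The members' median log2 fold change was 0.76 untreated and 0.47 after H2O2, beside -0.01 and 0.02 over all genes.

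Of the AKR1C genes, AKR1C2 (ENSG00000151632, chr10:4987400-5018031) differed most. Its level was 10.3, 10.8 and 10.3 CPM in untreated TIGK and 61.1, 55.9 and 46.2 CPM in untreated HaCaT. In treated libraries it was 12.1, 11.0 and 11.6 CPM in TIGK and 56.5, 55.4 and 63.7 CPM in HaCaT, so that no TIGK library reached the lowest of HaCaT. The log2 fold change was 2.38 untreated (SE 0.0978, adjusted p = 7.33e-14) and 2.34 after H2O2 (SE 0.0968, adjusted p = 8.38e-14).

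AKR1C1 (ENSG00000187134, chr10:4963253-4983283) was at 22.8, 22.4 and 18.4 CPM in untreated TIGK and 38.4, 36.9 and 34.9 CPM in untreated HaCaT. It was 1.73-fold higher in HaCaT untreated and 1.57-fold higher after H2O2 (adjusted p = 2.09e-06 and 2.08e-05). AKR1C3 (ENSG00000196139, chr10:5035354-5107686) was at 3.95 to 4.66 CPM in untreated TIGK and 5.06 to 8.80 CPM in untreated HaCaT, which was higher by 0.73 on the log2 scale (SE 0.172, adjusted p = 0.000916). After H2O2 the difference of AKR1C3 was 0.53 (SE 0.171) at the edge of the limit (adjusted p = 0.00993). It no longer passed in 14 of 22 alternative fits. Among those were the fits without 1 library for 10 of the 12 libraries, with adjusted p from 0.011 (without Tctrl 3) to 0.0691 (without Thp 3), and the exceptions were Hctrl 2 and Hctrl 3.

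The ratio of the counts of AKR1C2 to those of AKR1C1 was 0.497 ± 0.0544 in untreated and 0.464 ± 0.0717 in treated TIGK (SD, n = 3). In HaCaT it was 1.48 ± 0.137 untreated and 1.49 ± 0.0871 treated, so AKR1C1 had the higher count in all 6 TIGK libraries and AKR1C2 in all 6 HaCaT libraries. The ratio was 2.97-fold higher in HaCaT untreated and 3.23-fold after H2O2, and in both cases the exact permutation p was 0.1, two-sided, the smallest that 3 against 3 libraries allow. Of the 150-base windows of their transcripts, 7.5% of those of AKR1C1 and 10.9% of those of AKR1C2 were shared with another gene of the cluster, where reads cannot be assigned by sequence. The promoter windows of this pair, printed above, differ at few bases. Summed with AKR1C3 and AKR1C4 as 1 feature, the log2 fold change between the lines was 1.45 untreated and 1.34 after H2O2 (adjusted p = 2.56e-11 and 7.62e-11).

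ALDH1A1 and ALDH3A1 were nearly absent from TIGK. ALDH1A1 had 6 counts in the untreated TIGK libraries together and 184 in those of HaCaT, a ratio of 27.6 after scaling for depth (95% interval 12.4 to 76.2, counting error only). In the fit its log2 fold change was 4.69 untreated and 3.29 after H2O2 (adjusted p = 5.78e-07 and 6.38e-06). The 3 untreated HaCaT libraries spread from 0.680 to 2.01 CPM, all above the highest TIGK library at 0.210 CPM. ALDH3A1 was at 0.0572 to 0.461 CPM in all TIGK libraries and at 2.51 to 3.99 CPM in all HaCaT libraries. Its log2 fold change was 3.71 untreated (SE 0.432, adjusted p = 3.09e-07) and 3.97 after H2O2 (SE 0.430, adjusted p = 1.18e-07). Its neighbour on chromosome 17, ALDH3A2, differed by less, with HaCaT higher by 28.1% untreated (adjusted p = 3.64e-05) and 17.8% after H2O2 (adjusted p = 0.00193). The latter no longer passed in 6 of 21 alternative fits, among them those without Tctrl 2 (adjusted p = 0.0134), Thp 1 (0.0131), Thp 3 (0.0366) or Hhp 1 (0.0169).

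The genes lower in HaCaT were AKR1B1 and ALDH2. AKR1B1 was lower in every HaCaT than in any TIGK library, with at most 46.7 CPM in HaCaT against at least 61.3 CPM in TIGK (log2 fold change -0.98 untreated and -0.66 after H2O2, adjusted p = 5.30e-10 and 1.29e-07). ALDH2 was at most 6.00 CPM in untreated HaCaT and at least 9.54 CPM in untreated TIGK (log2 fold change -0.97, SE 0.120, adjusted p = 6.90e-07). After H2O2 the log2 fold change of ALDH2 was -0.70 (SE 0.116, adjusted p = 2.67e-05). ALDH2 shares 5.26% of its windows with a read-through gene that had 0 counts in all libraries.

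ALDH1A3 did not pass between the untreated lines, whose libraries overlapped (log2 fold change -0.11, 95% interval -0.22 to 0.00451, adjusted p = 0.0821). With library totals as the only scaling it passed as lower in HaCaT (log2 fold change -0.18, adjusted p = 0.00507). After H2O2 it was 1.32-fold higher in HaCaT (log2 fold change 0.40, SE 0.0560, adjusted p = 3.07e-06). AKR1B10 passed in neither comparison, with log2 fold changes of 0.79 (SE 0.388) and -0.20 (SE 0.385). Summed with its close copy AKR1B15, it gave 0.26 and -0.43, again without passing (adjusted p = 0.537 and 0.285).

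**Figure D4:**
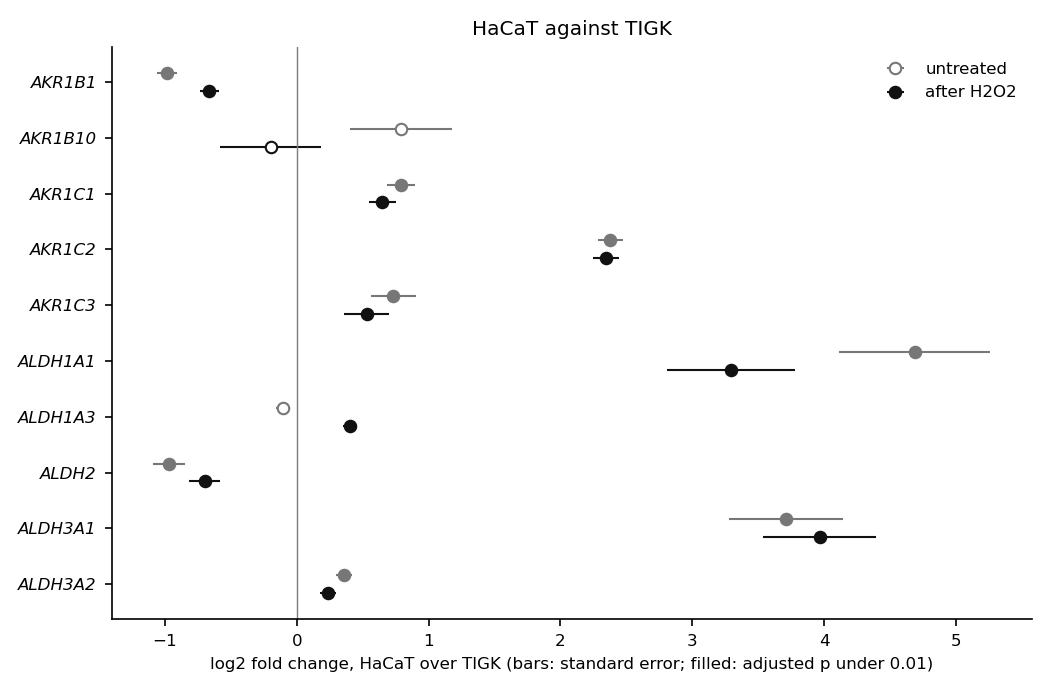
Log2 fold change of each gene in HaCaT over TIGK, untreated and after H2O2, with bars of 1 standard error and filled points for an adjusted p under 0.01. AKR1C2, ALDH1A1 and ALDH3A1 stand to the right, from 2.34 to 4.69, AKR1B1 and ALDH2 to the left, and ALDH1A3 moves from -0.11 to 0.40.

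The other genes of these families and of neighbouring pathways were read from lists. The counts called in each list stand beside 23.2% of all genes tested that passed in TIGK, 10.2% higher and 12.9% lower. In HaCaT 34.1% of all genes passed, 18.9% higher and 15.2% lower, and 5.3% passed in the difference of the responses. The median log2 fold changes of the lists after H2O2 stand beside 0.01 over all genes in TIGK and 0.04 in HaCaT. In TIGK and HaCaT they were 0.12 and 0.13 for the other ALDH genes, -0.17 and -0.11 for the other AKR genes, 0.23 and 0.34 for other carbonyl-clearing enzymes, -0.01 and -0.17 for retinal handling, 0.11 and 0.14 for NRF2 and -0.01 and -0.06 for AHR. Of 12 other ALDH genes tested, 0 passed in TIGK by edgeR, 1 by DESeq2 and 3 at an unadjusted p under 0.05. In HaCaT 1 passed by edgeR, 2 by DESeq2 (1 higher, 1 lower) and 7 were at an unadjusted p under 0.05. ALDH5A1 had 0 counts in every HaCaT library, so its response there could not be measured, although the 12 genes and the median of 0.13 include it. The gene that passed by edgeR was ALDH1B1, a mitochondrial aldehyde dehydrogenase close to ALDH2, which rose (log2 fold change 0.48, SE 0.0757, adjusted p = 5.56e-05). Its responses differed between the lines by -0.61 (TIGK minus HaCaT, adjusted p = 0.000592). Of 7 other genes of the AKR superfamily tested, AKR1A1, the aldehyde reductase, rose in both lines (log2 fold change 0.32 in TIGK and 0.40 in HaCaT, adjusted p = 0.00163 and 0.000148), and the other 6 did not pass in either. Without Tctrl 3 or Thp 1 the rise of AKR1A1 in TIGK missed the limit (adjusted p = 0.0116 and 0.0107).

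The list medians of HaCaT against TIGK, untreated and after H2O2, stand beside -0.01 and 0.02 over all genes. They were -0.76 and -0.64 for the other ALDH genes, -0.57 and -0.55 for the other AKR genes, -0.02 and 0.29 for carbonyl-clearing enzymes, 0.16 and -0.03 for retinal handling, -0.52 and -0.46 for NRF2 and -0.04 and -0.57 for AHR. Between the untreated lines, 9 of the 12 other ALDH genes were lower in HaCaT and 3 were higher, and after H2O2 it was 8 and 3. Beside this and the later lists, 30.8% of all genes tested were lower and 29.1% higher in untreated HaCaT. After H2O2 these shares were 29.8% and 30.2%. ALDH5A1, which clears succinic semialdehyde in the breakdown of the transmitter GABA, had 0 counts in all 6 HaCaT libraries and 6.57 ± 0.68 CPM in untreated TIGK (SD, n = 3). It was at least 71.9-fold lower in untreated and at least 82.4-fold lower in treated HaCaT, against a floor of 3 counts per library. ALDH1L2, a mitochondrial folate enzyme, was lower in HaCaT, with log2 fold changes of -5.98 untreated and -5.83 after H2O2 (adjusted p = 7.37e-16 and 1.85e-15). The log2 fold change of ALDH1B1 was -2.38 untreated (adjusted p = 1.03e-15), and that of ALDH3B1, which acts on lipid aldehydes at membranes, -3.05 after H2O2 (adjusted p = 4.95e-13).

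Of the 7 other AKR superfamily genes, 1 was higher and 4 were lower in untreated HaCaT, and 1 and 3 after H2O2. AKR1E2 was the higher one, with 170 counts in untreated HaCaT and 5 in untreated TIGK (ratio 30.6, 95% interval 12.9 to 95.5, counting error only), and it was at least 13.0-fold higher after H2O2, when TIGK had 0 counts. It reached the filter on counts only through its HaCaT libraries, where it was higher. AKR7A3, an aflatoxin aldehyde reductase, had log2 fold changes of -2.74 and -3.51 (adjusted p = 5.95e-09 and 9.26e-10). KCNAB2, a potassium channel subunit with the AKR fold, had log2 fold changes of -1.49 and -1.75 (adjusted p = 1.64e-11 and 1.94e-12).

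Among 13 other enzymes that clear carbonyls or their glutathione adducts, 4 rose and 0 fell in TIGK (5 and 0 by DESeq2, and 10 at an unadjusted p under 0.05). In HaCaT 10 rose and 1 fell. Of all genes tested, 10.2% rose and 12.9% fell in TIGK, and 18.9% and 15.2% in HaCaT. In the test of the difference between the responses 0 passed by edgeR or DESeq2, and 3 were at an unadjusted p under 0.05. The rises were small. In TIGK the largest were CBR4, a mitochondrial carbonyl reductase, at 0.47 (adjusted p = 0.000495), HAGH, the second glyoxalase, at 0.44 (adjusted p = 0.00608) and CBR1, the cytosolic carbonyl reductase, at 0.32 (adjusted p = 0.00536) on the log2 scale. In HaCaT they were HAGH at 0.71 (adjusted p = 5.25e-05) and DCXR, which reduces dicarbonyls, at 0.59 (adjusted p = 5.54e-06), and PTGR2, a prostaglandin reductase, fell by 0.84 (adjusted p = 0.00614). The call of HAGH in TIGK was lost in 6 alternatives, among them those without Tctrl 2 or 3 or any 1 Thp library (adjusted p from 0.0107 to 0.0334), that of CBR1 in 4, among them those without Tctrl 3, Thp 1 or Thp 3 (0.0123 to 0.035), and that of PTGR2 in HaCaT in 5, among them those without Hctrl 1 or 3 or Hhp 1 or 3 (0.0154 to 0.0365).

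Between the untreated lines 5 of the 13 were higher and 4 lower in HaCaT, and after H2O2 7 and 3. PTGR1, which reduces the double bond of hydroxynonenal, was higher by 1.73 and 1.82 on the log2 scale (adjusted p = 4.07e-13 and 1.71e-13). GSTA4, the glutathione transferase with a preference for hydroxynonenal, was lower, with log2 fold changes of -1.64 and -2.02 (adjusted p = 1.05e-07 and 7.23e-09). PTGR2 passed as higher untreated at 0.74 (adjusted p = 0.0077), a call lost in 9 alternatives, among them those without any 1 Tctrl library, Hctrl 1 or Hctrl 3 (adjusted p from 0.0115 to 0.0447). CBR3, a carbonyl reductase, passed as higher after H2O2 at 1.45 (adjusted p = 0.00275), but not without Thp 1 or Thp 3 (adjusted p = 0.0165 and 0.0249).

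**Figure D5:**
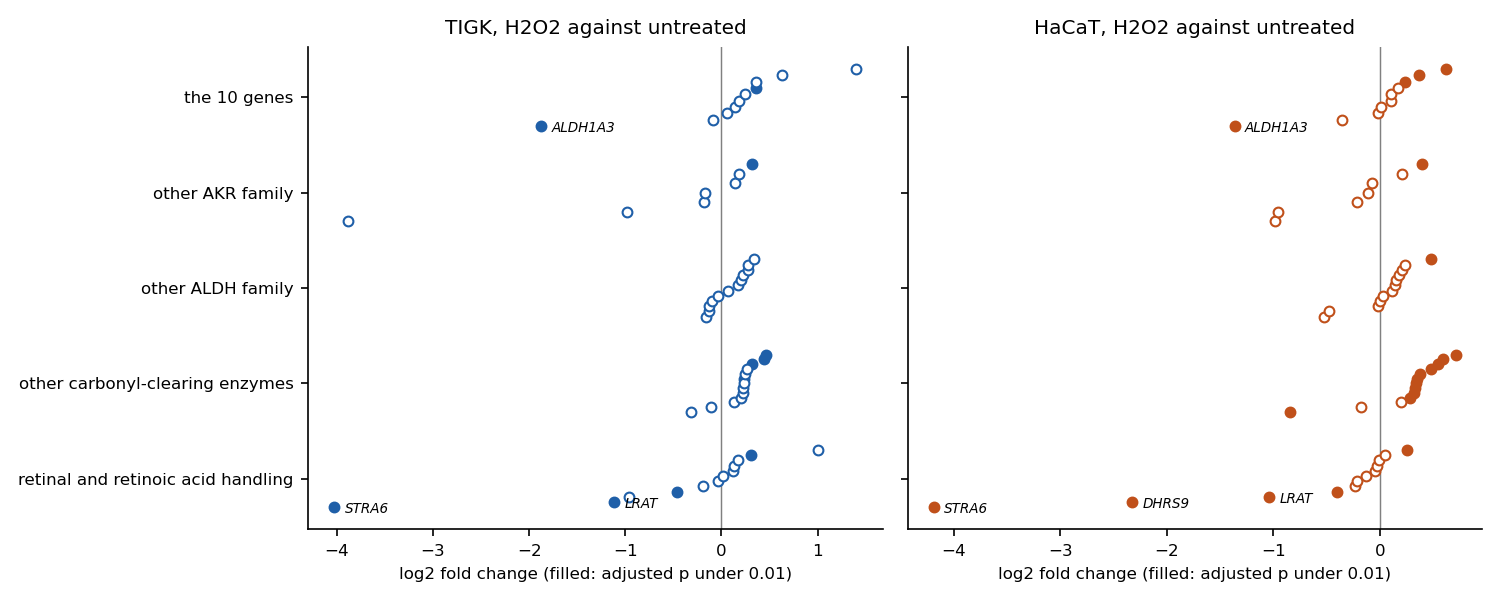
Log2 fold change after H2O2 in TIGK and HaCaT for the 10 genes and for each tested gene of 4 related lists, with 1 point per gene and filled points for an adjusted p under 0.01. The 12 other ALDH genes lie between -0.52 and 0.48 while ALDH1A3 stands at -1.87 and -1.36. Among them the HaCaT point of ALDH5A1 at 0 is no measurement, since its counts there were 0. STRA6 and LRAT of the retinal list also lie at -1.04 or below in both lines, but STRA6 reached the filter on counts only through untreated TIGK. The unfilled point far to the left among the AKR genes of TIGK is AKR1E2, with 5 counts untreated and 0 treated.

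Of 12 genes of retinal and retinoic acid handling, the pathway in which ALDH1A3 acts, 1 rose and 3 fell in TIGK. In HaCaT 1 rose and 4 fell. Of all genes tested, 10.2% rose and 12.9% fell in TIGK, and 18.9% and 15.2% in HaCaT. LRAT, which stores retinol as esters, fell in both lines, from 28.3 ± 1.0 to 13.0 ± 2.2 CPM in TIGK (SD, n = 3, log2 fold change -1.12, adjusted p = 3.83e-06) and from 22.8 ± 4.0 to 11.1 ± 1.8 CPM in HaCaT (log2 fold change -1.04, adjusted p = 9.04e-06). STRA6, the receptor for retinol uptake, had 128 counts in untreated and 8 in treated TIGK libraries together (log2 fold change -4.03, adjusted p = 0.000353). It reached the filter on counts only through the untreated TIGK libraries, where it was highest. In HaCaT it had 28 and 1 counts, a ratio of 0.0428 (95% interval 0.00105 to 0.259, counting error only), and its adjusted p of 0.00846 rose past the limit in 11 alternatives, among them those without any 1 Hhp or Tctrl library, Thp 1, Thp 2 or Hctrl 3 (adjusted p from 0.0101 to 0.0784). DHRS9, a retinol dehydrogenase, fell in HaCaT by 2.32 (adjusted p = 2.4e-06), and RARA, a retinoic acid receptor, fell in TIGK by 0.47 (adjusted p = 0.00132, and 0.0125 without Thp 2).

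The responses of this list differed between the lines for 1 gene, RARG, the main retinoic acid receptor of the epidermis, at 0.44 (TIGK minus HaCaT, adjusted p = 0.00563), a call lost in 6 alternatives, among them those without Tctrl 1, Thp 1 or any 1 Hctrl library (adjusted p from 0.01 to 0.0172). Between the untreated lines 6 of the 12 were higher in HaCaT and 3 lower, and after H2O2 3 and 2. RARB had 3 counts in untreated TIGK and 67 in untreated HaCaT libraries (ratio 20.1, 95% interval 6.59 to 99.9, counting error only), and it was higher after H2O2 by 3.13 (adjusted p = 0.00115). It reached the filter on counts only through its HaCaT libraries, where it was higher. DHRS9 was higher by 2.24 untreated (adjusted p = 5.28e-07) and STRA6 lower, at -2.29 (adjusted p = 0.00316), a call lost without Hctrl 1 or Hctrl 2 (adjusted p = 0.0227 and 0.0189). STRA6 reached the filter on counts only through untreated TIGK. After H2O2, CRABP2, which carries retinoic acid to its receptors, was lower at -2.45 and DHRS3, a retinal reductase, at -1.58 on the log2 scale (adjusted p = 5.76e-13 and 6.89e-07).

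Of 15 NRF2 regulators and targets, 4 rose and 3 fell in TIGK and 6 rose and 2 fell in HaCaT. Over all genes tested 23.2% passed in TIGK and 34.1% in HaCaT. In the test of the difference between the responses 0 passed by edgeR or DESeq2, and 5 were at an unadjusted p under 0.05. The cystine transporter SLC7A11 fell in both lines (log2 fold change -0.94 and -0.61, adjusted p = 4.3e-09 and 2.1e-06), and glutathione reductase GSR rose in both (0.36 and 0.40, adjusted p = 0.000765 and 0.000224). OSGIN1 fell in TIGK by 0.64 (adjusted p = 0.00311), a call lost without Tctrl 2 or 3 or any 1 Thp library (adjusted p from 0.0102 to 0.0154). KEAP1, the inhibitor of NRF2, rose in HaCaT by 0.48 and in TIGK by 0.26 (adjusted p = 8.63e-07 and 0.000677). Its difference of responses did not pass (-0.23, adjusted p = 0.0505). Between the lines, 4 were higher and 9 lower in untreated HaCaT, and 4 and 8 after H2O2. Heme oxygenase HMOX1 was lower in HaCaT at -4.01 and -4.30, SLC7A11 at -1.77 and -1.44, and NQO1, a quinone reductase, at -1.67 and -1.54 on the log2 scale (adjusted p at most 9.52e-11). AKR1C1, AKR1C2, AKR1C3 and ALDH3A1 stood on the opposite side of this comparison. HMOX1 had few counts in HaCaT, 11 to 13 per untreated and 8 to 13 per treated library, and it reached the filter through its TIGK libraries.

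Of 8 AHR regulators and targets, 1 rose and 2 fell in TIGK and 0 rose and 2 fell in HaCaT by edgeR. Over all genes tested 23.2% passed in TIGK and 34.1% in HaCaT. In HaCaT DESeq2 called 0 higher and 3 lower, and 4 were at an unadjusted p under 0.05 in either direction. AHRR, the repressor of AHR, fell in both lines (log2 fold change -1.57 and -1.18, adjusted p = 2.18e-08 and 1.33e-05). TIPARP, a feedback inhibitor of AHR, rose in TIGK by 0.92 (adjusted p = 1.21e-09) and differed between the responses by 1.12 (adjusted p = 8.31e-08). CYP1A1 fell in TIGK by 0.71 (adjusted p = 8.67e-05). CYP1B1 fell in HaCaT by 0.72 (adjusted p = 1.05e-06) and differed between the responses by 0.86 (adjusted p = 4.75e-05). In untreated HaCaT 3 of the 8 were higher and 3 lower, and 2 and 5 after H2O2, with CYP1A1 at -3.68 and -3.41 and AHRR at -2.59 and -2.21 on the log2 scale (adjusted p at most 2.35e-10). UGT1A6 shares most of its exons with other UGT1A genes, so that its reads are uncertain. It was higher in HaCaT than in TIGK by 1.48 untreated and by 1.76 after H2O2 (adjusted p = 0.000481 and 9.16e-05).

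The genes most like each member over the 12 libraries were found by the root mean square distance of mean-centred log2 CPM. For AKR1B1 they were DDX39A at 0.0578 and DAP at 0.0724, for AKR1C1 DIRC2 at 0.0904 and LZTFL1 at 0.0920, and for AKR1C2 PRSS23 at 0.151 and RAC2 at 0.157. For ALDH3A2 they were NBR1 at 0.0698 and DYNC1I2 at 0.0756, for ALDH2 GSDMD at 0.105 and LMNB1 at 0.116, and for AKR1C3 WDR44 at 0.156 and CCNH at 0.162. The nearest to ALDH1A3 were DCUN1D2-AS at 0.232 and ZNF253 at 0.236, with Pearson r of 0.962 and 0.969. This distance grows with the range of the gene itself, which was wide for ALDH1A3. The genes with few counts lay further from their nearest, AKR1B10 from RPL5P23 at 0.246 and AC008915.2 at 0.264, ALDH3A1 from TGFB2 at 0.395 and DNAH2 at 0.423, and ALDH1A1 from GULP1 at 0.434 and DNAJC15 at 0.447. These 12 points fall into 4 groups, so the likeness is one of group means and is given as a description.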

How the data were processed

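mRNA of TIGK and HaCaT was sequenced in 12 libraries, grouped by their labels. The authors deposited raw read counts per gene on GRCh38, which were used without change, and the gene lengths in bases. Hisat2, StringTie and featureCounts are named for mapping and counting, but the paper and the submitters' processing notes differ in provider and versions; the annotation release, the use of strand and the treatment of reads with several matches are not given in the sources used here. The deposited log2 fold changes and p-values of the authors' own comparisons were not used. No row of the count table lacked a gene (0 rows), and each of its sample columns was used.

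edgeR 4.0.16 (TMM, quasi-likelihood F-test, R 4.3.3) was run in 1 fit of 4 group means on the genes whose raw counts averaged 10 or more over all libraries. P-values were adjusted by Benjamini-Hochberg over all 16618 genes at a limit of 0.01, the limit of the study, which used DESeq2. The script was tested on simulated data. CPM were computed after TMM; likeness used a prior count of 2. Standard errors were derived from the log2 fold change and the F statistic of each test, and the 95% intervals of folds from these. A gene with 0 counts in a group was compared at a floor of 3 counts per library. Replicates differed beyond counting noise (chi-square per degree of freedom 4.45 to 28.2).

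The 10 genes and all lists were chosen with earlier results of these data known. All 10 genes are named, and of each list the counts and the 3 genes with the largest absolute log2 fold change past the limit in each comparison. Alternatives were DESeq2 1.42.0, fits of only the groups in a comparison, 3 other scalings, 2 other filters, a limit of 0.05, a replicate block, summed near-identical copies, and fits without each library in turn. For ALDH1A3 the sum with its antisense genes was a further alternative. Shared 150-base windows were counted in GENCODE transcripts with Python 3.11.15. RefSeq promoter windows of AKR1B10, ALDH2 and ALDH3A1 were not used here.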

Additional observations from a re-analysis of the deposited data

Results flagged for a closer look

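ALDH1A3 responded unlike in the 2 lines. Its log2 fold change after H2O2 was -1.87 in TIGK and -1.36 in HaCaT, and the difference of -0.51 (TIGK minus HaCaT, SE 0.0771) passed edgeR's test of the difference itself (adjusted p = 0.000227). It kept its sign and its call in all 21 alternatives, with values from -0.56 to -0.39 and adjusted p up to 0.00346. The overlapping antisense gene AC015712.2 had a difference of 0.98, of the opposite sign, which missed the limit of 0.01 (adjusted p = 0.0408). With the counts of both antisense genes added to those of ALDH1A3 the difference was -0.39 (adjusted p = 0.00287). This sum was among the 21 alternatives. It holds only reads that had been assigned to these genes, so it cannot settle the origin of reads from the shared stretches.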

How the results depend on the processing

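The number of members that rose in HaCaT, 3, was 2 on the groups alone, with upper-quartile factors, without a filter and with filterByExpr, since ALDH3A2 was lost. The number higher in HaCaT after H2O2, 7, was 6 with RLE factors or filterByExpr, without AKR1C3, and 5 with upper-quartile factors or library totals, without AKR1C3 and ALDH3A2. With library totals ALDH1A3 became the third member lower in untreated HaCaT. With DESeq2, or at a limit of 0.05, 2 members rose in TIGK, and at 0.05 the difference of responses passed as lower for 2. In the fits without 1 library, 2 to 3 members rose in HaCaT and 5 to 7 were higher in HaCaT after H2O2, while the numbers that rose (1 to 1) and fell (1 to 1) in TIGK, fell in HaCaT (1 to 1), were higher (6 to 6) or lower (2 to 2) in untreated HaCaT, lower after H2O2 (2 to 2), or differed in response (0 to 0 higher, 1 to 1 lower) stayed as they were. ALDH1A3 kept its calls of the 2 responses in 22 alternatives each, between -1.89 and -1.75 in TIGK and between -1.40 and -1.32 in HaCaT.

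Signs turned only for genes that had not passed. ALDH1A1 in HaCaT was at -0.00204 with DESeq2, -0.0276 on the groups alone, -0.00276 with RLE and -0.0298 with upper-quartile factors, -0.0149 without a filter and -0.0184 with filterByExpr, and AKR1C3 in HaCaT at 0.0958 with copies summed. Without 1 library the log2 fold change ranged in TIGK from -0.00977 to 0.119 for AKR1B1 and -0.514 to 0.902 for ALDH3A1. In HaCaT it ranged from -0.673 to 0.161 for AKR1B10, -0.00347 to 0.138 for AKR1C1, -9.49e-05 to 0.199 for AKR1C2, -0.206 to 0.167 for AKR1C3 and -0.342 to 0.229 for ALDH1A1. Between the lines after H2O2 it was -0.440 to 0.0111 for AKR1B10, and for the difference of responses -0.0591 to 0.139 for AKR1C2 and -0.648 to 0.732 for ALDH3A1. The cause was not tested.

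With the replicate block, all 10 counts of members were those without it (1 and 1 in TIGK, 3 and 1 in HaCaT), and of the 10 counts over all genes the number with a lower difference of responses moved by over 1.5 times, from 496 to 326. Among the named genes of the lists it ended the calls of CBR1 and HAGH in TIGK (adjusted p = 0.0109 and 0.0127), of PTGR2 and STRA6 in HaCaT (0.0117 and 0.0178), of PTGR2 between the untreated lines (0.0128) and of the RARG difference (0.0159). Deviations of same-numbered libraries were uncorrelated (r from -0.0319 to 0.0257, 0 of 12 pairs over 0.1), so the numbers were taken as names only. Over all genes, 1699 rose in TIGK, 2571 without a filter and 2877 at 0.05, and 3135 rose in HaCaT, 2061 without Hhp 2. The difference of responses was higher for 385 genes, 685 with DESeq2, 769 without a filter, 704 without Hhp 1 and 847 at 0.05. It was lower for 496, 326 with filterByExpr, 1172 at 0.05, and 186 to 300 without Tctrl 2, Thp 2, Thp 3, Hctrl 1, Hctrl 2 or Hhp 2. For AKR1B10 the counting-error intervals of the ratio lay off 1 for the responses (1.14 to 2.06 in TIGK, 0.57 to 0.967 in HaCaT) and the untreated lines (1.37 to 2.42), although the edgeR test, which includes the spread between libraries, was not passed. In TIGK the interval of the response was 1.04 to 8.44 for ALDH1A1, from 6 and 18 counts, and 0.522 to 1.74 for ALDH3A1, from 24 and 25.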
